A study of Mus musculus with 18 samples.

Results

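Intestinal endothelial cells were picked out of droplet single-cell RNA data from mouse gut that had been prepared to study immune cells. A cell was taken as endothelial if fewer than 20% of its counts were mitochondrial, if it held at least 1 unique molecule (UMI) of Pecam1 and of Cdh5, and if it held 0 UMIs of Ptprc, Epcam and Cd79a, which mark leukocytes, epithelium and B cells. The rule found 239 cells among the 60272 cells of the series, 33 of 21687 in the colon and 206 of 21600 in the small bowel lamina propria. It found none among 16985 cells of the small bowel epithelium. The cells came from St8sia6 knockout mice (KO), St8sia6 heterozygous mice (het) and wild-type mice (WT), for which the labels name no treatment, age, sex, strain or allele. The product of St8sia6 attaches sialic acids to sugar chains on proteins and lipids. Each of 3 independent runs used 1 KO, 1 het and 2 WT mice, so every WT hashtag pooled a pair of animals. Cells passed a density gradient and a bead selection for CD45, a leukocyte surface protein, and the genotypes were marked with antibody hashtags and combined by organ before capture. Endothelial cells lack CD45, so those described here were carried through an immune enrichment, and their number does not measure the vascular content of the tissue. The colon preparation joined lamina propria and epithelium, while the small bowel lamina propria was captured on its own.

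Endothelium lines blood and lymphatic vessels. In the gut, fenestrated capillaries with PLVAP diaphragms take up absorbed nutrients. Venules carry selectins and the addressin MAdCAM-1, on which circulating lymphocytes roll and stop. Lymphatic vessels, specified by the transcription factor PROX1 and usually rich in the hyaluronan receptor LYVE1, drain fluid, chylomicrons and migrating leukocytes. The nuclear receptor encoded by Nr2f2 is known from venous and lymphatic endothelium.

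The 3 colon libraries held 14, 10 and 9 endothelial cells and the 3 lamina propria libraries held 79, 84 and 43. The colon cells had a median of 6131 UMIs and the lamina propria cells a median of 3794 UMIs. All 239 cells carried as their own top hashtag the one assigned to their barcode ending. Fewer had a clear hashtag, one with at least 80% of at least 10 hashtag molecules: in lamina propria libraries 1 to 3 these were 25 of 43, 15 of 36 and 18 of 30 KO cells, 24 of 24, 17 of 18 and 8 of 8 het cells, and 10 of 12, 27 of 30 and 3 of 5 WT cells. No cell barcode was shared between endings of the same library, and 197 barcodes in the colon and 190 in the lamina propria recurred between libraries. The WT ending of lamina propria library 3 stood apart from the other endings. Its WT hashtag was the top hashtag in 55.7% of its cells, its cells had a median of 1420 UMIs, and it held 5 endothelial cells. The tests of genes by genotype did not use these 5 cells, and the shares that include them are given without library 3 beside their main values.

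The cells fitted the endothelial label on genes that the rule did not use. Leaving out Pecam1 and Cdh5, all 24 other genes of the endothelial list were detected in each tissue. Their summed level was 10938 to 13988 CPM (UMIs scaled to a common library total) in the colon libraries and 13868 to 14483 CPM in the lamina propria libraries, against 140 CPM in the other colon cells and 195 CPM in the other lamina propria cells. Among genes found in at least 20% of the endothelial cells and in at least 2 libraries of each tissue, the highest ratio to all other cells belonged to Fabp4, a fatty acid binding protein of capillaries, at 3141 CPM against 13.4 CPM. Podxl, Flt1, Scgb3a1, Ptprb, Cavin2, Kdr, Tm4sf1, Adgrf5, Plvap, Adgrl4, Mmrn2, Emcn, Cyyr1, Selp, Egfl7, Prex2, Esam, Shank3, Apold1, Fgd5, Cav1, Tie1 and Sox18 followed, together with Cdh5 from the rule, and the last of these 25 had a ratio of 128. Flt1 and Kdr encode VEGF receptors, Tie1 an angiopoietin co-receptor, Esam a junction protein and Sox18 an endothelial transcription factor. These 25 genes were seen in at most 0.721% of lamina propria T cells (Ptprc and Cd3e present, Cdh5 absent), which serve here as a rough level of free RNA. Cdh5 was absent there by the T cell rule, and leaving out T cells with Cdh5 can make this level too low. Because the cells were chosen on their counts, this contrast is a description and was not tested.

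In the lamina propria the selection threshold was sharp against cells with 1 UMI of only 1 of the 2 genes. The 20 cells with exactly 1 UMI each of Pecam1 and Cdh5 held Kdr in 60% and Flt1 in 50%, and the 186 cells with 3 or more UMIs of the pair held Kdr in 71.0% and Flt1 in 82.8%. The 326 cells just outside, with 1 UMI of only 1 of the genes, held Kdr in 10.1% and Flt1 in 5.52%. In the colon 2 cells lay just inside, 31 well inside and 43 just outside, and Kdr was found in 93.5% of the 31 and in 6.98% of the 43. A further 158 lamina propria and 67 colon cells had both genes but also a UMI of Ptprc, Epcam or Cd79a. Those of the lamina propria held Kdr in 57.0%, Flt1 in 79.1% and Plvap in 80.4%, against 69.9%, 79.6% and 75.7% of the selected cells. In the colon these shares were 43.3%, 37.3% and 41.8%, against 93.9%, 60.6% and 69.7%. No doublet caller was run on the endothelial cells.

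Markers of other cell types were present, at levels that differed by list and tissue. T cell genes summed to 0 to 28.8 CPM in the colon libraries and 9.82 to 14.2 CPM in the lamina propria libraries, myeloid genes to at most 16.7 CPM and 14.7 CPM, and Pf4, Ppbp, Gp9, Sox10 and S100b were at 0 in both tissues. Itga2b, the remaining gene of the platelet list, was found in 13 lamina propria cells and 1 colon cell. It stood at 19.8, 18.1 and 0 CPM in the lamina propria libraries, where the platelet list summed to 5.14 CPM in the other cells. Mural genes such as Rgs5 were found in 5 colon cells and 24 lamina propria cells. The fibroblast genes summed to 1612, 0 and 38.5 CPM in the 3 colon libraries, where 3 cells held them, against 25.5 to 44.2 CPM in the lamina propria. Mural genes summed to 518, 117 and 847 CPM in the colon libraries and 241 to 360 CPM in the lamina propria libraries. Plasma cell transcripts had the highest sum of these lists in the lamina propria. Igha, Igkc and Jchain, the IgA heavy chain, the kappa chain and the J chain, put the summed B and plasma cell level at 683 to 981 CPM in the colon and 6555 to 7904 CPM in the lamina propria. The epithelial genes summed to 192 to 267 CPM in the colon and 25.9 to 65.2 CPM in the lamina propria. They were found in 28 of 33 colon cells (84.8%) and 37 of 206 lamina propria cells (18.0%). Krt8 was found in 39.4% and 8.74%. Cells with no UMI of Cd3e, Cd3g, Lyz2, Csf1r, Ms4a1, Col1a1, Pdgfra, Krt8 and Pf4 numbered 17 in the colon and 178 in the lamina propria.

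Cells were then sorted into states by a few marker genes. A cell with at least 1 UMI of Lyve1 or Prox1 was called lymphatic-marker, a cell with neither of these and at least 1 UMI of Plvap or Selp was called blood-marker, and the rest were counted apart. In the colon 12 of 33 cells were lymphatic-marker (36.4%, exact 95% interval 20.4 to 54.9%), 20 were blood-marker (60.6%) and 1 was neither. In the lamina propria 36 of 206 cells were lymphatic-marker (17.5%, exact 95% interval 12.6 to 23.4%), 149 were blood-marker (72.3%) and 21 were neither. These intervals cover counting error only. Markers of both kinds occurred in 3 colon cells and 8 lamina propria cells, which count as lymphatic-marker.

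**Figure D1:**
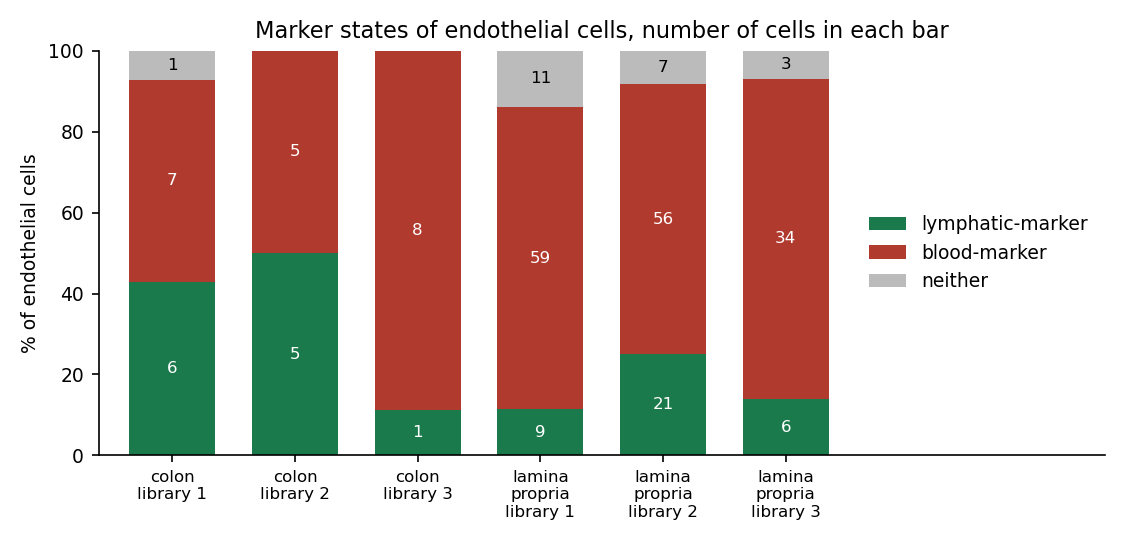
Percentage of endothelial cells in each marker state (bar height, with the number of cells printed in the bar) in the 3 colon and 3 lamina propria libraries. Lymphatic-marker cells were 6, 5 and 1 of the colon cells and 9, 21 and 6 of the lamina propria cells.

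Lyve1 and Prox1 were found in largely the same cells. In the colon 8 of the 9 cells with Prox1 also held Lyve1, and in the lamina propria 21 of 25 did, whereas Lyve1 occurred in 12.5% of colon cells and 6.08% of lamina propria cells without Prox1. Lyve1 was the more abundant, with 359 UMIs in 11 colon cells and 272 UMIs in 32 lamina propria cells, while Prox1 gave 36 UMIs in 9 colon cells and 61 UMIs in 25 lamina propria cells. The median cell with Lyve1 held 31 UMIs in the colon and 7 UMIs in the lamina propria. Nr2f2 was seen in 90.9% of the colon cells with Lyve1 and 90.6% of such lamina propria cells, against 36.4% and 46.0% of the cells without it.

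Further lymphatic genes tracked the same cells. Mmrn1, the matrix protein multimerin, was found in 11 of 12 lymphatic-marker cells of the colon (91.7%) and 83.3% of those of the lamina propria, and in no blood-marker cell of either tissue. Reln, which encodes the secreted protein reelin, was found in 100% and 80.6% of lymphatic-marker cells, and in 0% and 0.671% of blood-marker cells. Ccl21a, the chemokine that guides dendritic cells into lymphatics, was found in 91.7% and 75.0% of lymphatic-marker cells and in 0% and 0.671% of blood-marker cells. Pdpn, which encodes podoplanin, was less often detected, in 58.3% and 30.6% of lymphatic-marker cells and in 5.00% and 0% of blood-marker cells. Nts, which encodes neurotensin, was found in 50% of colon and 8.33% of lamina propria lymphatic-marker cells. The niche factors Rspo3 and Wnt2 were found in 50% and 33.3% of lamina propria lymphatic-marker cells and in 1.34% and 0% of blood-marker cells there. Among the 12 lymphatic-marker cells of the colon, Rspo3 was found in 33.3% and Wnt2 in none, which allows a share of up to 26.5% (exact 95% interval).

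The blood-marker cells of the lamina propria held a large group with a venule-type set of transcripts. Selp, which encodes P-selectin, was found in 81 lamina propria cells with a median of 34 UMIs in a positive cell, and 66 of the 81 held 10 or more. Plvap, in 156 lamina propria cells, was found in 98.8% of the cells with Selp. Among the cells with Selp, Madcam1 was found in 82.7%, Ackr1, an atypical chemokine receptor of venules, in 82.7%, Vwf, which encodes von Willebrand factor, in 86.4%, Sele, which encodes E-selectin, in 55.6%, and Nr2f2 in 82.7%. Among the 125 lamina propria cells without Selp these shares were 0.8%, 1.60%, 30.4%, 0% and 33.6%. The arterial connexin gene Gja4 ran the other way, in 1.23% of cells with Selp and 29.6% of cells without. Gpihbp1, which anchors lipoprotein lipase on capillaries, was likewise in 1.23% and 33.6%. Other genes of these kinds did not follow them. The capillary gene Cd36 was in 80.2% of cells with Selp and 56% without, and the arterial gene Sox17 in 32.1% and 41.6%. The cells without Selp include lymphatic-marker cells, and of the 43 lamina propria cells with Gpihbp1 21 held Lyve1 and 12 held Plvap. Only Plvap and Selp entered the state rule, and the shares above are descriptions of the same cells.

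The 21 lamina propria cells with neither kind of marker still looked endothelial, with Kdr in 81.0% and Flt1 in 95.2%. Many held some of the arterial or capillary genes. Sox17, an arterial transcription factor, was found in 57.1% of them, Sema3g, a secreted semaphorin, in 47.6%, the chemokine gene Cxcl12 in 71.4%, Sparcl1 in 76.2% and the growth factor genes Pdgfb and Bmp6 in 76.2% and 52.4%. In blood-marker cells of the lamina propria these shares were 43.6%, 19.5%, 38.9%, 47.0%, 28.9% and 4.70%. These genes are only a part of the arterial and capillary lists. Gja4 and Cd36 were set against Plvap in a wider set, all lamina propria cells without Plvap, of which 58% held Lyve1. Gja4 was found in 16% and Cd36 in 32% of that set, and in 19.2% and 76.3% of cells with Plvap. Since Cd36 was found in 3.13% of lamina propria cells with Lyve1, the 32% does not describe the cells with neither marker. The cells with neither marker had a median of 2783 UMIs and the blood-marker cells a median of 3952 UMIs.

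To compare the states across libraries, counts were summed per library and state, keeping sums of at least 5 cells, and tested with edgeR (quasi-likelihood, library as a block, Benjamini-Hochberg over all genes). Both states were available in 5 libraries, colon libraries 1 and 2 and all 3 of the lamina propria, the blood-marker sum of colon library 3 entered the fit without a partner, and the genes of the cell rule and of the state rule were left out. Of 827 genes tested, 211 differed at an adjusted p under 0.05, which is 25.5%. Of these 100 were higher in lymphatic-marker cells (12.1%) and 111 lower (13.4%). The lymphatic list rose: 10 of its 11 tested genes were higher and 1, Fabp4, was lower, with a median log2 difference of 4.91 against 0.04 over all tested genes. The states were cut from the same counts that were tested. Genes that share cells with Lyve1 and Prox1, or with Plvap and Selp, were therefore bound to stand out. The lymphatic list and the lists of blood vessel genes have no independent test. In this section CPM values are scaled with TMM factors.

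Igfbp5, which encodes an insulin-like growth factor binding protein, had the lowest adjusted p of all. It stood at 8426 and 4697 CPM in lymphatic-marker cells of colon libraries 1 and 2 and 1197, 2533 and 9496 CPM in those of lamina propria libraries 1 to 3, against 60.2 and 0 CPM and 11.7, 18.1 and 33.7 CPM in blood-marker cells. Every lymphatic-marker sum lay above every blood-marker sum, and the log2 difference was 7.32 ± 0.29 (approximate SE, edgeR adjusted p = 2.41e-06). Here and below, the approximate SE of a log2 difference is its size divided by the square root of its F value. edgeR does not report it, and it can be too small where a group has few counts. Mmrn1 stood at 5813 and 6123 CPM in the colon and 4838, 5044 and 4211 CPM in the lamina propria in lymphatic-marker cells and at 0 in all blood-marker sums. Pooled over the libraries it was at least 810-fold higher, set against a floor of 3 counts over all blood-marker cells. Flt4, which encodes the receptor of VEGF-C, stood at 1712 and 1478 CPM in the colon and 1145, 1564 and 1657 CPM in the lamina propria, against 30.1 and 59.4 CPM and 76.0, 54.3 and 78.6 CPM in blood-marker cells. Its log2 difference was 4.50 ± 0.30 (edgeR adjusted p = 3.47e-05), with no overlap between the states.

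Other genes that rose in lymphatic-marker cells were Reln (log2 difference 8.99), Ccl21a (7.82), the transcription factor gene Maf (6.30), Thy1 (6.54), Cyp4b1 (7.17), Adgrg3 (6.21), Fgl2 (4.91), Stab1, which encodes a scavenger receptor (3.09), Fxyd6 (2.79), Nrp2, a co-receptor for VEGF-C (2.01), and the water channel gene Aqp1 (1.61). Gpihbp1 was also higher in lymphatic-marker cells, at 1307 and 1056 CPM in the colon and 624, 573 and 314 CPM in the lamina propria, against 572 and 119 CPM and 40.9, 42.2 and 67.4 CPM in blood-marker cells. Its log2 difference was 2.69 ± 0.46 (edgeR adjusted p = 0.00409), and the lymphatic-marker sum was the higher in all 5 libraries. Igfbp3 rose by 1.27 on the log2 scale (edgeR adjusted p = 0.0394), and in colon library 1 it reached 4236 CPM in lymphatic-marker cells against 1807 CPM in blood-marker cells.

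**Figure D2:**
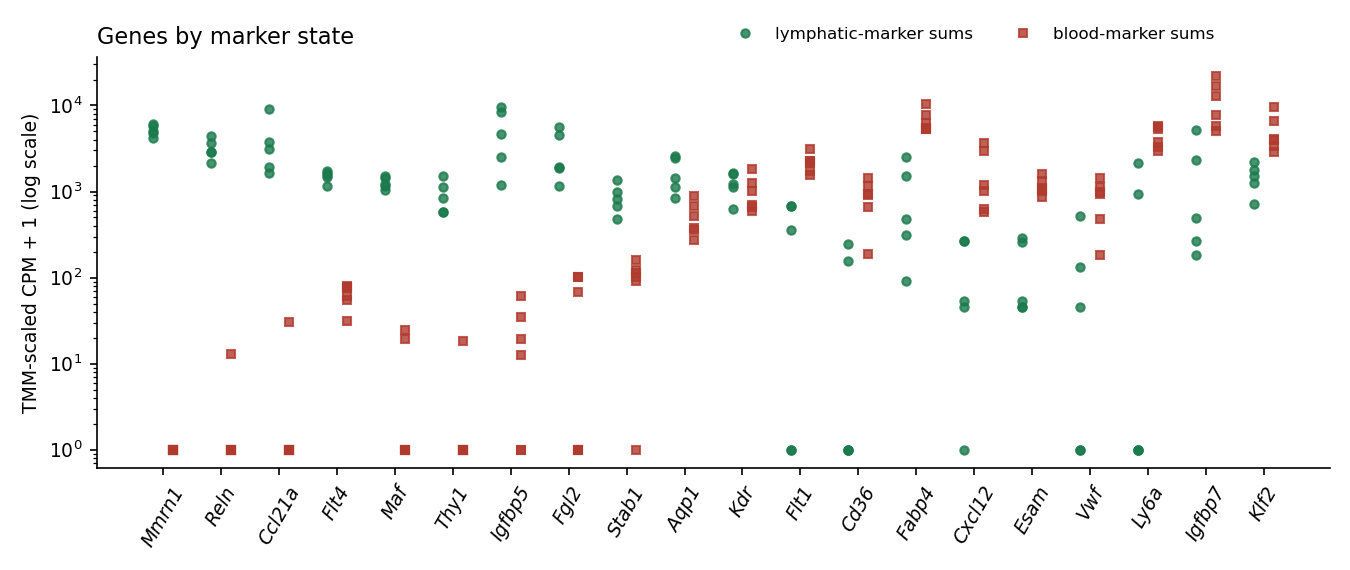
TMM-scaled CPM plus 1 on a log axis for 20 genes in lymphatic-marker sums (circles, 5 libraries) and blood-marker sums (squares, 6 libraries); a gene at 0 is drawn at 1. Mmrn1, Reln, Ccl21a and Maf stood at 0 or at most 29.2 CPM in every blood-marker sum, while Kdr overlapped between the states.

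The genes that fell in lymphatic-marker cells came from several lists. Cd36, a fatty acid transporter, stood at 0 and 0 CPM in colon and 156, 242 and 0 CPM in lamina propria lymphatic-marker cells, against 663 and 1426 CPM and 1163, 917 and 943 CPM in blood-marker cells (log2 difference -3.40 ± 0.63, edgeR adjusted p = 0.00552). Within each library the blood-marker sum was the higher. Fabp4 fell by 3.10 on the log2 scale (edgeR adjusted p = 0.0072), Cxcl12 by 3.42, the junction gene Jam2 by 3.47, Esam by 2.93, the phospholipid transfer protein gene Pltp by 3.49, Vwf by 2.64, Flt1 by 2.70 and Nrp1 by 2.70. Klf2, a shear-responsive transcription factor gene, fell by 1.5 and Socs3 by 2.07. The remaining VEGF receptor gene, Kdr, did not pass the test, with a log2 difference of 0.46 (edgeR adjusted p = 0.266), nor did Tie1 (0.56) or Cldn5 (1.10).

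Of 17 tested immediate early and stress genes, 12 fell in lymphatic-marker cells and none rose, against 13.4% of all tested genes that were lower. Their median log2 difference was -1.27. Egr1 stood at 1487 and 1056 CPM in colon and 936, 3744 and 896 CPM in lamina propria lymphatic-marker cells, against 6717 and 3506 CPM and 4037, 5422 and 5278 CPM in blood-marker cells (log2 difference -1.77, edgeR adjusted p = 0.00369). Atf3 fell by 2.11, Ier3 by 2.48, Jun by 1.5 and Fos by 1.10 on the log2 scale. Of the other lists, VEGF, angiopoietin and Notch genes gave 2 higher and 6 lower of 14 tested, venous genes 0 higher and 3 lower of 4, adhesion genes 1 higher and 3 lower of 6, and antigen presentation and interferon genes 0 higher and 2 lower of 12. The capillary list gave 2 higher and 3 lower of 6. Venous and adhesion genes such as Ackr1 shared cells with Plvap and Selp, so their counts are not independent of the state rule. Of all tested genes 12.1% were higher and 13.4% lower. Plasma cell RNA was even between the states, with a log2 difference of 0.02 for Igha (edgeR adjusted p = 0.951).

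The colon held a lower share of endothelial cells than the lamina propria. The shares were 0.194, 0.129 and 0.142% of cells in the colon libraries and 1.06, 1.28 and 0.584% in the lamina propria libraries, with means of 0.155 ± 0.0344% and 0.976 ± 0.356% (SD, n = 3 each). The groups did not overlap, and the difference of -0.821 percentage points gave an exact two-sided permutation p = 0.1, the smallest that 3 against 3 libraries can give. Without lamina propria library 3 the difference was -1.02 points. The share is of a CD45-selected suspension. The lymphatic-marker share of endothelial cells, after each cell was thinned to 1000 UMIs, was 42.9, 50 and 11.1% in the colon libraries and 8.86, 20.7 and 11.6% in the lamina propria libraries. The groups overlapped, and the difference between the means of 34.7 ± 20.7% and 13.7 ± 6.21% did not pass the exact permutation test (p = 0.3). Unthinned, the difference was 17.9 points. Thinned and with Prox1 as the only marker it was 2.04 points, and thinned without lamina propria library 3 it was 19.9 points.

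Gene levels were compared between the tissues in sums over all endothelial cells of a library with at least 10 cells. This kept colon libraries 1 and 2 and lamina propria libraries 1 to 3. Lower genes in the colon included those of venule adhesion and of plasma cell RNA, and higher genes included Cd74, H2-Aa, H2-Ab1, Car4 and lymphatic genes. Of 4340 genes tested with edgeR, 495 differed (11.4%), of which 208 were higher in the colon (4.79%) and 287 lower (6.61%). Since a sum mixes states, fewer cells of a state and less RNA per cell cannot be told apart in it. Lymphatic-marker cells made up 6 of 14 and 5 of 10 cells in these colon libraries and 9 of 79, 21 of 84 and 6 of 43 in the lamina propria libraries. The comparison was therefore repeated in blood-marker cells alone, with sums of at least 5 cells, which kept 7, 5 and 8 cells of the 3 colon libraries and 59, 56 and 34 cells of the lamina propria libraries. In that comparison 302 of 1871 genes differed (16.1%), 158 higher in the colon (8.44%) and 144 lower (7.7%).

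Of 11 tested venous genes, 8 were lower in the colon and 1 higher, and the median log2 difference was -2.30 against -0.04 over all tested genes. Of all tested genes 6.61% were lower and 4.79% higher. Selp stood at 10.5 and 176 CPM in the colon libraries and 3494, 4078 and 4633 CPM in the lamina propria libraries (log2 difference -5.75 ± 0.43, edgeR adjusted p = 4.48e-07). Both colon values lay far below the lamina propria values. Few colon cells held it, 1 in library 1, 1 in library 2 and 2 in library 3, and 1 cell of library 3 carried 41 of all 59 colon UMIs. In blood-marker cells alone Selp stood at 23.9, 443 and 1404 CPM in the colon and 4604, 6156 and 7090 CPM in the lamina propria, again without overlap (log2 difference -3.27 ± 0.57, edgeR adjusted p = 0.00277). Selp itself helped to define that state, so its test there is not independent of the state rule.

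Madcam1 was at 0 in both colon sums, against 2059, 865 and 1157 CPM in the lamina propria, and pooled over the libraries it was at least 63.1-fold lower, set against a floor of 3 counts over the 24 colon cells. In blood-marker cells alone it stood at 0, 0 and 117 CPM in the colon, from 4 UMIs of 1 cell, and at 2363, 1325 and 1770 CPM in the lamina propria (log2 difference -5.45 ± 0.58, edgeR adjusted p = 8.92e-05). The colon values were again all below the lamina propria values. In the lamina propria 1 KO cell of library 1 held 307 of the 1088 Madcam1 UMIs. Ackr1 stood at 0 and 52.8 CPM in the colon and 746, 868 and 707 CPM in the lamina propria (log2 difference -5.23, edgeR adjusted p = 9.3e-06), and its difference in blood-marker cells alone was -1.96 (edgeR adjusted p = 0.0445). With colon library 3 added to the sums over all states, Ackr1 no longer passed (log2 difference -2.16, edgeR adjusted p = 0.111).

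Among leukocyte adhesion and recruitment genes, 7 of 15 were lower in the colon and 2 higher, against 6.61% and 4.79% of all tested genes. Cxcl10, an interferon-induced chemokine gene, stood at 42.1 and 35.2 CPM in the colon and 814, 1283 and 1069 CPM in the lamina propria (log2 difference -4.72 ± 0.39, edgeR adjusted p = 1.67e-06). Vcam1 stood at 21.0 and 17.6 CPM in the colon and 387, 345 and 315 CPM in the lamina propria (log2 difference -4.11), and Icam1 at 326 and 440 CPM in the colon and 1391, 1790 and 2395 CPM in the lamina propria (log2 difference -2.30). For all 3 genes the tissues did not overlap, and in blood-marker cells alone the log2 differences were -3.96, -1.83 and -1.62, each past the threshold. Sele and Vwf fell by 5.61 and 1.86 on the log2 scale over all cells, but in blood-marker cells alone neither passed (log2 differences -1.21 and -0.59, edgeR adjusted p = 0.285 and 0.425). There colon library 3 had Vwf at 1140 CPM, above all 3 lamina propria libraries. The adhesion genes that rose were Ccl21a and Cxcl12.

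Nr2f2 depended on the cells that were summed. Over all endothelial cells it stood at 694 and 651 CPM in the colon and 553, 620 and 590 CPM in the lamina propria and did not pass the test (log2 difference 0.20, edgeR adjusted p = 0.584). In blood-marker cells alone it was lower in the colon, at 287, 177 and 234 CPM against 586, 522 and 617 CPM, with a log2 difference of -1.24 ± 0.29 (edgeR adjusted p = 0.0127). Plvap stood at 3386 and 3344 CPM in the colon and 2425, 2148 and 2168 CPM in the lamina propria over all cells (log2 difference 0.58, edgeR adjusted p = 0.0243), a call that was lost when colon library 1 (adjusted p = 0.168), colon library 2 (0.12), lamina propria library 2 (0.053) or lamina propria library 3 (0.0774) was left out. In blood-marker cells, a state that Plvap itself helped to define, it stood at 7657, 8377 and 6608 CPM in the colon and 3239, 3201 and 3245 CPM in the lamina propria.

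**Figure D3:**
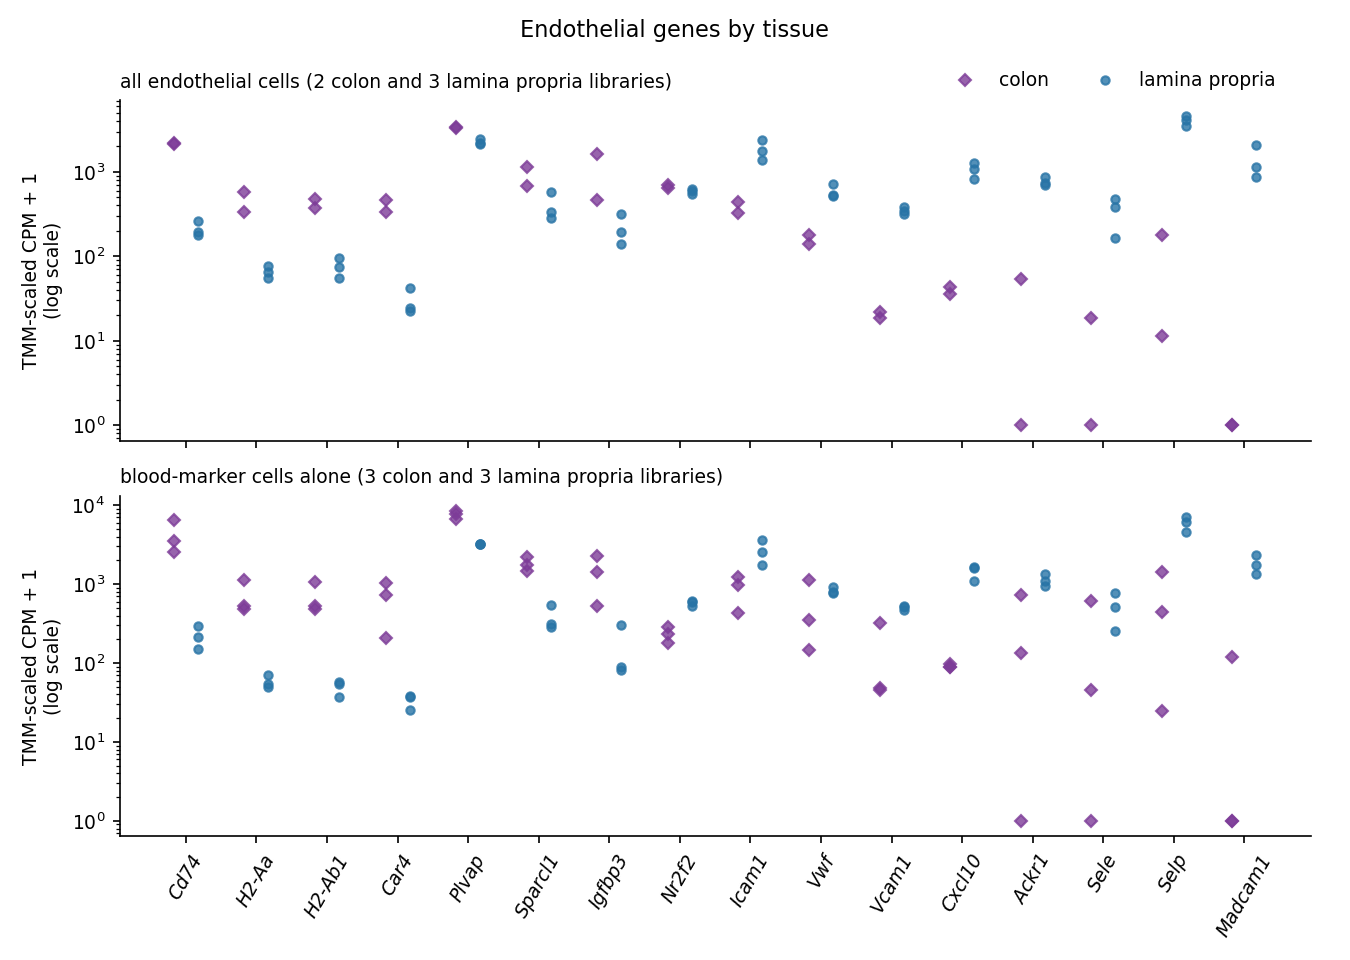
TMM-scaled CPM plus 1 on a log axis for 16 genes in colon libraries (diamonds) and lamina propria libraries (circles), over all endothelial cells (top) and over blood-marker cells alone (bottom); a gene at 0 is drawn at 1. Cd74, H2-Aa, H2-Ab1 and Car4 lay higher and Cxcl10, Selp and Madcam1 lower in every colon library in both panels, while Nr2f2 lay lower in the colon only in the bottom panel.

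Genes of MHC class II, which presents peptides to CD4 T cells, were higher in colon endothelium. Cd74, the invariant chain, stood at 2166 and 2200 CPM in the colon and 261, 177 and 193 CPM in the lamina propria (log2 difference 3.36 ± 0.21, edgeR adjusted p = 5.13e-08). H2-Aa stood at 337 and 581 CPM in the colon and 64.4, 55.0 and 76.0 CPM in the lamina propria, and H2-Ab1 at 368 and 475 CPM in the colon and 54.3, 73.3 and 93.5 CPM in the lamina propria, with log2 differences of 2.78 and 2.52. No colon value overlapped a lamina propria value for these 3 genes. In blood-marker cells alone Cd74 stood at 3541, 2526 and 6521 CPM in the colon and 291, 150 and 215 CPM in the lamina propria (log2 difference 4.26 ± 0.36, edgeR adjusted p = 1.97e-05). T cells held Cd74 UMIs too, and whether as free RNA or their own was not tested. A Cd74 UMI was found in 87.9% of colon and 28.6% of lamina propria endothelial cells, against 70.3% and 55.8% of T cells of the same tissues, and the part of free RNA in the difference was not tested. Of 17 tested antigen presentation and interferon genes 5 were higher in the colon and 1 lower, against 4.79% and 6.61% of all tested genes. H2-D1 was among the higher (log2 difference 0.89), Irf1 was the lower (-1.05), and H2-K1 (0.36) and B2m (-0.20) did not pass.

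The capillary list gave 4 higher and 1 lower of 11, against 4.79% higher and 6.61% lower of all tested genes. Car4, a carbonic anhydrase of capillary endothelium, stood at 337 and 458 CPM in the colon and 40.7, 21.4 and 23.4 CPM in the lamina propria (log2 difference 3.71 ± 0.36, edgeR adjusted p = 9.3e-06). In blood-marker cells alone it stood at 718, 1019 and 205 CPM in the colon and 37.5, 24.2 and 35.8 CPM in the lamina propria, and 3 cells of each of the 6 libraries held it, out of 7, 5 and 8 in the colon and 59, 56 and 34 in the lamina propria. Rgcc, Gpihbp1 and Sparcl1 rose by 1.21, 1.63 and 1.21 on the log2 scale, and Cd36 fell by 1.20 (edgeR adjusted p = 0.0161). The Cd36 difference did not pass in blood-marker cells alone (log2 difference -0.59, edgeR adjusted p = 0.375). The growth factor binding gene Igfbp3 rose by 2.29 over all cells and 3.15 in blood-marker cells, and Nos3, the endothelial nitric oxide synthase gene, fell by 1.74. Arterial genes gave 1 higher and 2 lower of 10, against the same shares of 4.79% and 6.61%. Sox17 and Gja4 did not pass (log2 differences 0.37 and 1.04).

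Lymphatic genes were higher in the colon sums, 11 of 16 with none lower and a median log2 difference of 1.52. Of all tested genes 4.79% were higher and 6.61% lower. Lyve1 stood at 2566 and 2024 CPM in the colon and 204, 519 and 245 CPM in the lamina propria (log2 difference 2.81 ± 0.29, edgeR adjusted p = 1.31e-05). Ccl21a rose by 2.78, Fgl2 by 2.63, Pdpn by 2.97, Thy1 by 2.12, Mmrn1 by 1.66, Reln by 1.55, Flt4 by 1.12 and Prox1 by 1.49 on the log2 scale. The Prox1 call (edgeR adjusted p = 0.0391) was lost when colon library 2 (0.143) or any lamina propria library (0.0545 to 0.0749) was left out, with DESeq2 (0.0918), and with colon library 3 included through sums of at least 5 cells (0.126). Colon library 3, which the sums of at least 10 cells left out, had no Lyve1 UMI in 9 cells, and with it included Lyve1 did not pass (log2 difference 2.33, edgeR adjusted p = 0.096). The share of lymphatic-marker cells moved with these genes, and its part in their differences was not tested.

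Foreign RNA also moved with the tissue. Igha stood at 242 and 106 CPM in the colon and 4382, 3840 and 4703 CPM in the lamina propria (log2 difference -4.52 ± 0.27, edgeR adjusted p = 5.13e-08), Igkc and Jchain fell by 3.46 and 2.55, and all 3 were found in 100% of the lamina propria endothelial cells. The epithelial gene Lgals4 was higher in the colon, at 147 and 106 CPM against 23.7, 18.3 and 17.5 CPM, and was found in 49.6% of colon T cells. Their part in the other differences was not tested.

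The targeted gene was rare in endothelial cells. St8sia6, on chromosome 2 at 13651018 to 13794734 (GRCm38.p6, from RefSeq), gave 11 UMIs in 7 colon cells and 31 UMIs in 21 lamina propria cells, 50.9 and 32.9 CPM. In the lamina propria it stood at 14.2, 16.6 and 15.3 CPM in KO cells of libraries 1 to 3 (8 UMIs in all), 99.1, 69.8 and 17.1 CPM in het cells (17 UMIs) and 0, 41.7 and 67.8 CPM in WT cells (6 UMIs). All other lamina propria cells had 31.2, 38.4 and 37.4 CPM in KO, 42.0, 44.1 and 49.9 CPM in het and 52.2, 67.7 and 62.6 CPM in WT. KO lay below WT in each library in those other cells. In the lamina propria endothelial cells the KO and WT values overlapped, and the KO values lay below the het values, on 8 and 17 UMIs. The deleted stretch is not described in the labels, so the transcripts seen in KO cells check nothing. St8sia6 was too rare to pass the filter of any test here.

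Other sialyltransferase genes were expressed at higher levels. St6galnac3 gave 190 UMIs in 96 lamina propria cells, St3gal6 143 in 85, St3gal1 117 in 70 and St3gal4 114 in 65. St8sia1, St8sia3, St8sia5 and St6galnac1 were at 0 in all 239 cells. St8sia2, which encodes a polysialyltransferase, gave 29 UMIs in 24 lamina propria cells, or 19.8, 44.0 and 24.5 CPM by library, against 0.37 CPM in the other cells. Of 9 sialyltransferase genes tested between the tissues 1 differed, against 11.4% of all genes tested, so that the family was near the background. It was St6gal1, which was lower in the colon (21.0 and 17.6 CPM against 78.0, 79.4 and 87.6 CPM, log2 difference -2.0, edgeR adjusted p = 0.0491). None of 5 tested between the genotypes passed.

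Genotype was compared within each tissue. In the lamina propria, KO endings held 43, 36 and 30 endothelial cells in libraries 1 to 3, het endings 24, 18 and 8, and WT endings 12, 30 and 5. These were 1.87, 1.52 and 0.938% of KO cells, 1.12, 1.02 and 0.484% of het cells and 0.403, 1.24 and 0.199% of WT cells. KO was the highest genotype in each library, but the ranges of KO and WT overlapped. The means were 1.44 ± 0.469% in KO and 0.616 ± 0.554% in WT (SD, n = 3 each), a difference of 0.824 points (exact permutation p = 0.2). The het difference from WT was 0.257 points (exact permutation p = 0.6). Without library 1, 2 or 3 the KO difference was 0.504, 1.10 or 0.867 points and the het difference 0.0282, 0.5 or 0.243 points. In the colon, KO endings held 9, 3 and 7 cells, het endings 3, 2 and 0, and WT endings 2, 5 and 2. The shares were 0.414, 0.114 and 0.289% in KO, 0.194, 0.163 and 0% in het, where 0 of 1347 cells allows up to 0.273% (exact interval), and 0.0572, 0.129 and 0.0784% in WT. KO exceeded WT in libraries 1 and 3 and not in library 2, and the mean difference of 0.184 points did not pass (exact permutation p = 0.2).

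**Figure D4:**
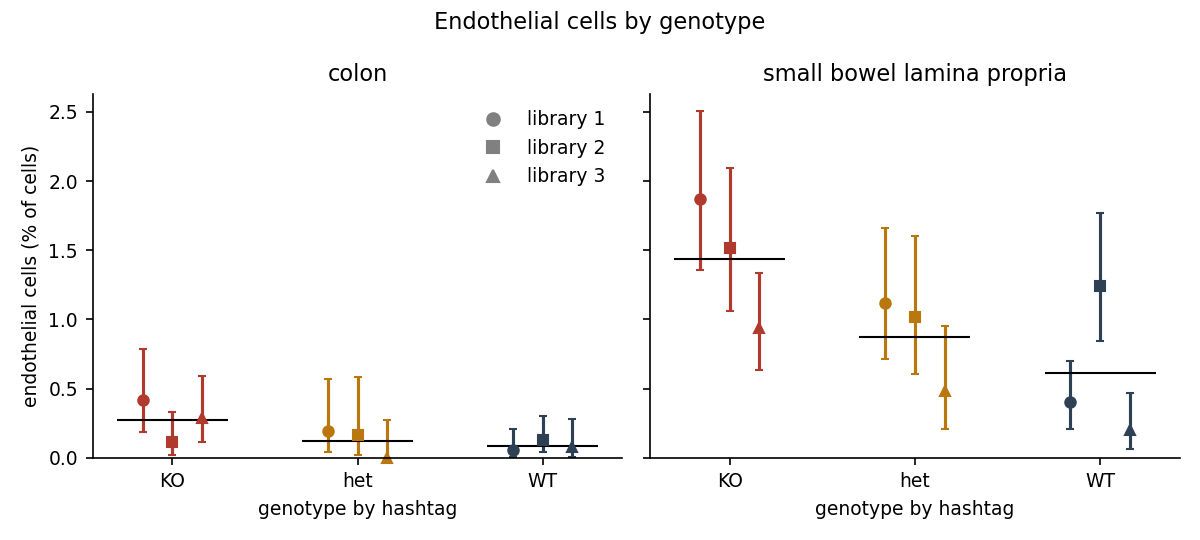
Endothelial cells as a percentage of all cells of the same genotype and library, for KO, het and WT in the colon (left) and small bowel lamina propria (right). Points are libraries with exact 95% binomial intervals and black lines are means of 3 libraries; KO was highest in each of the 3 lamina propria libraries, and the KO and WT ranges overlapped in both tissues.

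The lymphatic-marker share of lamina propria endothelial cells, thinned to 1000 UMIs, was 2.33, 22.2 and 13.3% in KO and 25, 21.4 and 20% in WT. The ranges overlapped, and the difference of -9.52 points did not pass (exact permutation p = 0.3). KO cells of library 1 held the low value, with 1 lymphatic-marker cell among 43, and without that library the difference was -2.94 points. Without library 3 it was -10.9 points. In the colon lymphatic-marker cells numbered 3 of 9, 2 of 3 and 0 of 7 in KO, 3 of 3 and 1 of 2 in het, and 0 of 2, 2 of 5 and 1 of 2 in WT, too few for a comparison.

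Gene levels by genotype were tested in the lamina propria, in sums of at least 10 cells with the library as a block. These were 3 KO sums, 2 het sums and 2 WT sums, from libraries 1 and 2 for het and WT, and the KO sum of library 3 had no partner in its library, so the contrasts rested on libraries 1 and 2. No colon comparison could be made at that size. Between KO and WT 8 of 2730 genes differed (0.293%), 3 higher (0.11%) and 5 lower (0.183%). Plpp3, which encodes a lipid phosphate phosphatase, stood at 1264, 1320 and 1048 CPM in KO and 343 and 468 CPM in WT (log2 difference 1.56 ± 0.32, edgeR adjusted p = 0.0218). Igfbp7, a secreted growth factor binding protein of vessels, stood at 5281, 4180 and 3431 CPM in KO and 2030 and 2443 CPM in WT (log2 difference 1.02, edgeR adjusted p = 0.0227). Cd36 stood at 1111, 784 and 586 CPM in KO and 375 and 312 CPM in WT (log2 difference 1.42, edgeR adjusted p = 0.0387). For these 3 genes the KO values lay above both WT values. The 5 WT cells of library 3, outside the main test, had Plpp3 at 67.8, Igfbp7 at 814 and Cd36 at 1221 CPM (plain). On that scale Cd36 stood at 890, 647 and 467 CPM in KO, so this left-out WT value lay above every KO value. None of the 3 passed with DESeq2 (adjusted p = 0.419, 0.48 and 0.916), without the block (0.123, 0.359 and 0.292), among cells with a clear hashtag (0.435, 0.322 and 0.134), with at least 3 UMIs of Pecam1 and Cdh5 (0.797, 0.942 and 0.797), in blood-marker cells alone (0.107, 0.322 and 0.405), or in sums of at least 5 cells, which add het and WT of library 3.

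Ccl21a was lower in KO, at 29.5, 295 and 260 CPM against 718 and 863 CPM in WT (log2 difference -2.39 ± 0.45, edgeR adjusted p = 0.0147), and the KO values lay below both WT values. The lowest was library 1, where 1 of 43 KO cells was lymphatic-marker against 3 of 12 WT cells. With it Mmrn1 stood at 35.4, 777 and 500 CPM in KO and 1780 and 998 CPM in WT, and Lyve1 at 41.4, 737 and 317 CPM in KO and 1093 and 509 CPM in WT, and neither passed (log2 differences -1.90 and -1.15, edgeR adjusted p = 0.365 and 0.768). Of 14 tested lymphatic genes 1 was lower in KO and none higher, against 0.183% lower and 0.11% higher of all tested genes. Igha was also lower in KO, at 3414, 3544 and 5325 CPM against 11334 and 5249 CPM in WT (log2 difference -1.15, edgeR adjusted p = 0.0113), with library 3 of KO inside the WT range and the other KO libraries below it. Igkc and Jchain, from the same plasma cell RNA, had log2 differences of -0.85 and -0.86 (edgeR adjusted p = 0.0953 and 0.0682). Gm42418 and Lars2 fell by 0.59 and 1.07 on the log2 scale. Both were also lower in KO than in WT in the other lamina propria cells of each library. There Gm42418 stood at 39773, 41798 and 37290 CPM (plain) in KO and 43652, 57193 and 70773 CPM in WT. Lars2 stood at 1457, 1623 and 1574 CPM in KO and 1547, 2026 and 2392 CPM in WT. In those cells Igha stood at 120460, 136702 and 159181 CPM in KO and 141994, 137243 and 159731 CPM in WT, so it was nearly even in libraries 2 and 3. Igfbp7 and Plpp3 were higher there in KO in each library. Ccl21a was higher there in KO, and Cd36 had no single direction. Ccl21a, Igha, Gm42418 and Lars2 did not pass with DESeq2 (adjusted p = 0.287, 0.135, 0.999 and 0.809), without the block (0.196, 0.359, 0.539 and 0.698), with at least 3 UMIs of Pecam1 and Cdh5 (0.997, 0.797, 0.997 and 0.997) or in sums of at least 5 cells (0.663, 0.663, 0.943 and 0.99). With a clear hashtag Ccl21a and Igha passed (0.0166 and 0.000517) and Gm42418 and Lars2 did not (0.0657 each), nor did these with no filter on low counts (0.871 and 0.177). The 5 WT endothelial cells of library 3, outside the main test, had Gm42418 at 51878.5 and Lars2 at 271 CPM (plain). KO endothelial cells of that library had 59152 and 2075 CPM. Whether the share of lymphatic-marker cells or of foreign RNA had a part in the other differences was not tested.

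Gm10260, a ribosomal protein pseudogene on chromosome 13 at 97760087 to 97760609 (GRCm38.p6, from RefSeq, as Rps18-ps6), had the lowest adjusted p between genotypes. It stood at 5.91, 0 and 0 CPM in KO endothelial cells and 718 and 541 CPM in WT (edgeR adjusted p = 4.65e-08). Over libraries 1 to 3 KO had 1 UMI and WT of libraries 1 and 2 had 75 UMIs, a ratio of 244 in favour of WT with a counting interval of 42.5 to 9769. The interval covers counting error only and not the spread between libraries. The ratio leaves out the WT endothelial cells of library 3, which had 0 UMIs in 5 cells. The other cells of the same captures showed the same pattern. They had 1.78, 1.99 and 0.405 CPM in KO and 179, 288 and 3.02 CPM in WT of lamina propria libraries 1 to 3, and 0.865, 8.04 and 0.411 CPM in KO and 1.29, 718 and 1.72 CPM in WT of colon libraries 1 to 3. Thus WT was high in 3 of 6 captures and at the KO level in the other 3, lamina propria library 3 and colon libraries 1 and 3. The pseudogene shares sequence with its parent gene, so its counts are uncertain.

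Of the genes that mark the endothelial states, Plvap, Selp, Nr2f2 and Lyve1 were tested between KO and WT and none passed, and Prox1 was too low to be tested. Madcam1 stood at 2782, 1085 and 1548 CPM in KO and 406 and 790 CPM in WT, all KO values above both WT values, yet its log2 difference of 1.30 did not pass (edgeR adjusted p = 0.133), and the first KO value contains the cell with 307 UMIs. With edgeR it passed among cells with a clear hashtag (log2 difference 1.79, adjusted p = 0.0177) and with no filter on low counts (adjusted p = 0.000362). Plvap stood at 2658, 2519 and 2720 CPM in KO and 1218 and 1757 CPM in WT (log2 difference 0.75, edgeR adjusted p = 0.325), Selp at 4111, 4756 and 5940 CPM in KO and 6338 and 4459 CPM in WT (-0.28, adjusted p = 0.915), and Nr2f2 at 620, 663 and 682 CPM in KO and 1124 and 780 CPM in WT (-0.51, adjusted p = 0.81). No gene of the venous, arterial, endothelial, VEGF, junction, antigen presentation or stress lists passed in this contrast.

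**Figure D5:**
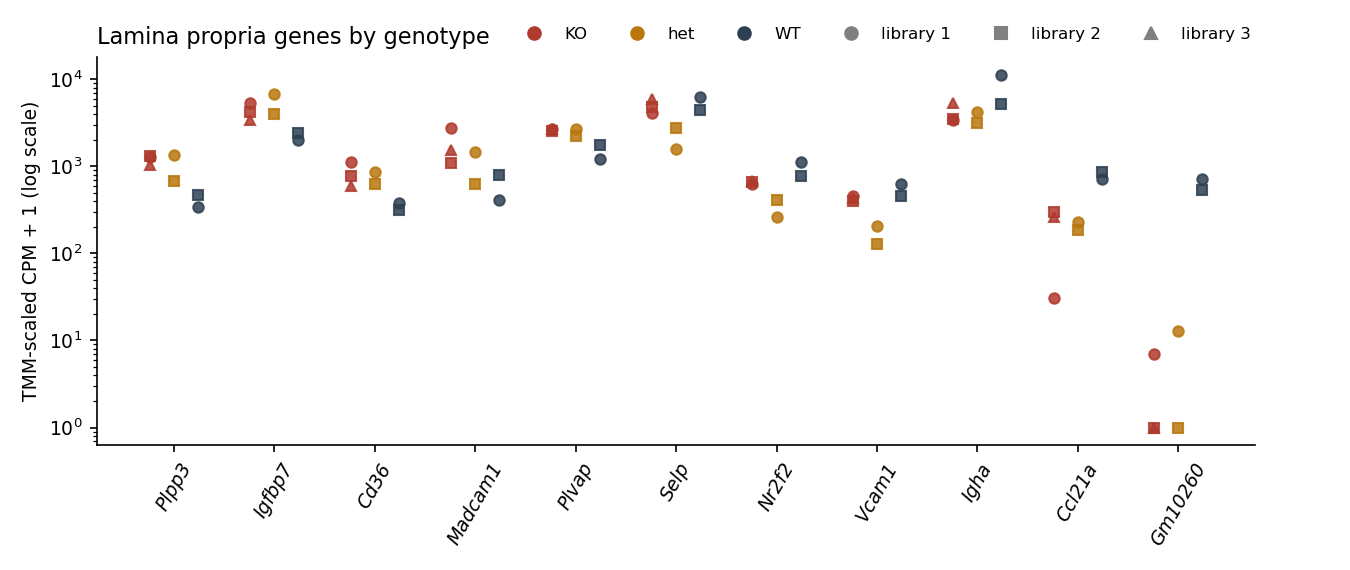
TMM-scaled CPM plus 1 on a log axis for 11 genes in lamina propria endothelial sums of at least 10 cells, for KO (3 libraries), het (2 libraries) and WT (2 libraries), with marker shapes for libraries; a gene at 0 is drawn at 1. Plpp3, Igfbp7 and Cd36 lay higher and Ccl21a and Gm10260 lower in every KO sum than in both WT sums.

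Between het and WT 22 of 2730 genes differed (0.806%), 11 higher and 11 lower (0.403% each), and het and WT were measured in 2 libraries each. The venous list gave 3 lower and none higher of 11. Selp stood at 1574 and 2751 CPM in het and 6338 and 4459 CPM in WT (log2 difference -1.33 ± 0.23, edgeR adjusted p = 0.00297). Vcam1 stood at 204 and 126 CPM in het and 624 and 457 CPM in WT (log2 difference -1.69, edgeR adjusted p = 0.0318), and Nr2f2 at 264 and 407 CPM in het and 1124 and 780 CPM in WT (log2 difference -1.46, edgeR adjusted p = 0.0332). In all 3 both het values lay below both WT values. Cxcl10, Atf3, Aqp1, Fgl2, Il6 and Zfp36l1 also fell, by 1.86, 1.32, 1.45, 3.08, 4.60 and 1.37 on the log2 scale, as did Igha (1.11) and Gm10260, which stood at 12.0 and 0 CPM in het.

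Genes that rose in het cells included Ly6a (log2 difference 1.29), Ly6c1 (1.36), Sparc, which encodes a matricellular protein (1.74), Clu (2.07), Igfbp7 (1.18), Cxcl12 (1.73), Sparcl1 (1.51), Depp1 (1.86) and Eln, which encodes elastin (1.62). Sparc stood at 1357 and 1460 CPM in het and 468 and 385 CPM in WT, without overlap (edgeR adjusted p = 0.00297). The smooth muscle gene Tagln rose in het, at 36.0 and 505 CPM, mainly in library 2, while WT was at 0, so that it was at least 11.2-fold higher against a floor of 3 counts over the WT cells. Defa24, a Paneth cell defensin gene, stood at 733 and 56.1 CPM in het and 62.4 and 31.2 CPM in WT. With library 3 included through sums of at least 5 cells, 0 of 2224 genes passed with edgeR for KO and for het against WT, and 112 and 165 had an unadjusted p under 0.05. The difference between the KO and het effects was not tested, and both contrasts share the WT sums.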

How the data were processed

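Single-cell RNA and antibody hashtag libraries came from small bowel lamina propria, small bowel epithelium and colon, in 3 runs each. The authors' deposited matrices hold raw UMI counts per gene and cell, made with Cell Ranger and Seurat against mm10 per the submitters' processing notes, with versions not given; the hashtag values were deposited as molecule counts too. The matrices cover 32285 genes. Per the labels' protocols, libraries used 5' chemistry, and cells outside limits on genes, molecules and mitochondrial share had been removed.

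Here, each barcode ending took the genotype of the hashtag with the highest median, and endings 1 to 3, 4 to 6 and 7 to 9 formed libraries 1, 2 and 3 of a tissue. Libraries of the 2 tissues could not be paired. Counts were summed per library, with genotype or state where compared, in sums of at least 10 cells (5 for the states and for blood-marker cells alone, a setting chosen after seeing the data because 10 left no state test). Sums were tested in R 4.3.3 with edgeR 4.0.16 (filterByExpr, TMM, quasi-likelihood F test, Benjamini-Hochberg over all genes tested, called at an adjusted p under 0.05), with genes of the cell rule left out. DESeq2 1.42.0, other normalization, filters, cell limits and left-out libraries were alternatives. Numbers of the same run pair genotypes of a library, since they were captured together, so the library was a block in tests of genotype and state. Shares were compared by exact two-sided permutation tests over libraries. CPM beside a fold change are TMM-scaled, other CPM are plain. On simulated data the test of tissue recovered 31.2% of genes changed by 1 on the log2 scale and 75% of those changed by 2 (4175 genes), the test of genotype 13.8% and 84.8% (2695 genes), and the test of states 63.0% and 100% (806 genes). The simulation gave all genes of a comparison the same dispersion and had no library effect, so recovery in the real data can be lower. It gave 6 false calls for tissue, 0 for genotype and 7 for states. Endothelial cells held 51973 to 104225 UMIs per colon library and 203684 to 386576 per lamina propria library. Genes named are up to 15 in each direction with the lowest adjusted p per comparison, tested members of the gene lists, 25 genes with the highest ratio to other cells, and Plvap, Selp, Nr2f2, Lyve1, Prox1, St8sia6 and Madcam1. Cells and lists were chosen with earlier results of these data known.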

Additional observations from a re-analysis of the deposited data

Results flagged for a closer look

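Cells outside the comparisons also carried endothelial transcripts. In the small bowel lamina propria 158 cells held Pecam1 and Cdh5 together with a UMI of Ptprc, Epcam or Cd79a, and in the colon 67 did. The lamina propria cells had Kdr in 57.0%, Flt1 in 79.1% and Plvap in 80.4%, and a median of 9909.5 UMIs. The colon cells had Kdr in 43.3%, Flt1 in 37.3% and Plvap in 41.8%, and a median of 10346 UMIs. Cd3e was found in 24.1% of the lamina propria cells and 25.4% of the colon cells. In the small bowel epithelium, where the rule found no endothelial cell, 130 cells held both genes, all of them with Ptprc, and Flt1 was found in 0% and Plvap in 3.08% of them. Whether these are pairs of cells in a droplet was not tested.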

How the results depend on the processing

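For colon over lamina propria, 495 genes passed, and 278 passed with DESeq2, 279 in sums of at least 5 cells, 302 in blood-marker cells alone and 303 to 476 with a library left out, the lowest without colon library 1. Nr2f2, at 0.20, changed sign to -1.24 in blood-marker cells alone, to -0.08 in sums of at least 5 cells and to -0.02 with no filter, the last pair without passing. For KO over WT, 8 genes passed, and 1 passed with DESeq2, 1 with no replicate block, 2 with at least 3 UMIs of Pecam1 and Cdh5, 2 in blood-marker cells alone, 4 with a clear hashtag and 0 in sums of at least 5 cells. For het over WT, 22 genes passed, and 7 passed with DESeq2, 10 with no replicate block, 38 with no filter, 2 with at least 3 UMIs, 12 in blood-marker cells alone and 0 in sums of at least 5 cells. For the states, 211 genes passed, and 707 passed with no filter, 335 without cells holding other markers, 136 with Prox1 as the only lymphatic marker and 511 without cells of both kinds; with a library left out 142 to 200 did. The cause of these changes was not tested.

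As a share of cells without Ptprc, colon minus lamina propria was -1.55 points and KO minus WT was 2.23 points in lamina propria and 0.357 points in colon. With a clear hashtag the colon difference was 0.505 points. KO minus WT of the lymphatic-marker share was 3.31 points with Prox1 alone. With a library left out, the endothelial share differed by -1.02 to -0.669 points between tissues, by 0.504 to 1.10 (KO) and 0.0282 to 0.5 (het) in lamina propria cells, and in colon cells by 0.0978 to 0.284 (KO) and -0.0220 to 0.0857 (het), and the lymphatic-marker share by 13.2 to 32.7 between tissues and -14.7 to -2.94 between KO and WT. With the replicate block, exact sign-flip tests of the endothelial share gave p = 0.25 for KO and 0.5 for het in lamina propria, 0.5 for KO and 0.75 for het in colon, and p = 0.5 for the lymphatic-marker share, where 0.25 is the smallest that 3 pairs allow.

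All 478 single-gene values between the states kept their direction and call, as did 366 between tissues; 20 between tissues, 40 for KO and 82 for het no longer passed under an alternative. Sums of at least 20 cells, genotype tests without lamina propria library 1 or 2 and in both tissues, tissue and genotype tests without cells holding other markers, and state tests at 10 cells were not run.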
